A study of Homo sapiens with 12 samples.

Results

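The RNA response of HEK293T cells to 4-thiouridine (4SU) alone was read from 6 of the 12 libraries of an RNA-Seq series. These were the 3 labelled as treated with 4SU and the 3 labelled as treated with DMSO. Members were taken by their treatment label and by nothing measured in them. HEK293T is an established human embryonic kidney line that carries the SV40 large T antigen. The 4SU cells received 100 µM 4SU for 16 h without the probe CEP described next, and the DMSO cells received neither 4SU nor CEP. The other 6 libraries came from cells given CEP (the clickable electrophilic purine AHL-Pu-1, a cysteine-reactive probe, 25 µM for 1 h) with or without the same 4SU treatment. They serve here as a second background that shares no library with the first. All 12 libraries were also fitted together, so the CEP libraries enter the filter, the scaling and the estimate of spread. The 4SU effect averaged over both backgrounds uses them as well. In the paper, DMSO is the solvent of the CEP stock, and 4SU stocks are made in serum-free medium. Whether the 4SU cells also received DMSO was not stated. All groups hold 3 libraries described as independent replicates. The protocol attached to the samples, with irradiation at 312 nm and 1 J/cm2, has the same wording for all 12 libraries, and it does not say whether the cells without 4SU were irradiated, so the values describe 4SU as it was applied in this workflow.

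4SU is a uridine with sulfur in place of an oxygen of the base. Cells take it up through nucleoside transporters, phosphorylate it through the uridine salvage kinases and build it into new RNA at positions that would hold uridine, and near-ultraviolet light then links it to a protein that touches it. Long or concentrated labelling is known to disturb ribosomal RNA processing and to cause nucleolar stress, in which ribosome assembly stalls and genes of cell cycle arrest are switched on, which is why ribosomal, nucleolar, splicing and stress genes are the groups described below. The libraries were made from polyadenylated RNA, so messenger RNA and polyadenylated non-coding RNA were measured well, and ribosomal RNA, histone mRNA and small RNA were not.

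Counts on genes summed to between 20325464 and 24644734 in the DMSO libraries and between 16569114 and 18801229 in the 4SU libraries. Mitochondrially encoded genes took 1.27% to 1.65% of the DMSO counts and 1.31% to 1.46% of the 4SU counts. Log2 levels of genes correlated between any 2 of the 6 libraries with r of 0.983 to 0.988 across genes, and 4SU replicate 2 had the lowest values, at 0.983 to 0.984 with the 3 DMSO libraries, against 0.985 or more in every other pair. Of the 8 genes fixed as markers of this cell line, all passed the filter on low counts, among them VIM, a filament protein, at 242 CPM (counts scaled to a common library size) in DMSO and 224 with 4SU, and LIN28B, a regulator of let-7 microRNAs, at 129 and 133. Of the markers of blood, vessel and fibroblast cells, 4 of 9 passed the filter, and of those of melanoma, the source of another cell line in the study, 4 of 7. SOX10, S100B and TYR of the melanoma list and PTPRC, CD3E, CDH5, PECAM1 and DCN of the other list did not pass, and TYR and CD3E had 0 counts in all 12 libraries. The 4 melanoma markers that passed the filter all had a positive log2 difference with 4SU, with a median of 0.20. DCT, a pigment enzyme, was at 1.41, 2.61 and 1.66 CPM in DMSO and 3.02, 3.48 and 4.07 CPM with 4SU, without overlap (log2 difference 0.90, SE 0.30, adjusted p 0.669). The summed level of the 7 melanoma markers was 29.4 to 30.2 CPM in DMSO and 32.1 to 34.2 CPM with 4SU, and 30.9 to 40.3 against 31.2 to 33.8 CPM in CEP-treated cells, where the groups overlapped. That of the 9 blood, vessel and fibroblast markers was 48.5 to 50.1 CPM in DMSO and 40.3 to 49.9 CPM with 4SU. The part of these markers in the results below was not tested.

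RPL22L1 stood apart from the rest. It encodes a paralog of the large-subunit ribosomal protein RPL22, the 2 proteins are known to take the same place in the ribosome, and RPL22 is known to limit RPL22L1. The RPL22L1 gene lies on the minus strand at chr3:170864875-170870483 (GRCh38), and RPL22 on the minus strand at chr1:6185020-6209389.

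RPL22L1 was measured at 53.9, 48.5 and 47.9 CPM in the DMSO libraries and at 31.1, 24.2 and 31.8 CPM in the 4SU libraries. Every 4SU value lay below every DMSO value. The gene fell by 0.79 on the log2 scale (SE 0.12), from a mean of 50.1 ± 3.27 to 29.0 ± 4.16 CPM (SD, n = 3 each), with an adjusted p of 0.0336 (edgeR's quasi-likelihood test with Benjamini-Hochberg adjustment over 17729 genes). It was the only gene called (0.00564% of the genes tested). Per length, its level went from a mean of 21.4 to 12.4 FPKM (fragments per kilobase of gene, scaled for library size). RPL22 itself was measured at 162, 175 and 201 CPM in DMSO and at 154, 154 and 181 CPM with 4SU, and the groups overlapped. Its log2 change was -0.14 (SE 0.15, adjusted p 0.892). In CEP-treated cells RPL22L1 was at 46.2, 51.8 and 61.0 CPM without 4SU and at 27.6, 25.8 and 25.7 CPM with it, a log2 change of -1.01 (SE 0.12, adjusted p 0.000974), and it was again the only gene called there (0.00564%). The RPL22L1 call rests on all 3 libraries a group: with any 1 of the 6 left out its log2 change was between -0.85 and -0.66 and its adjusted p between 0.0694 and 0.626. It also missed the threshold with the deposited FPKM in limma (adjusted p 0.217 and 0.265 with pseudocounts of 1 and 0.1), with upper-quartile scaling (0.0611) and with library sizes alone (0.0976).

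**Figure D1:**
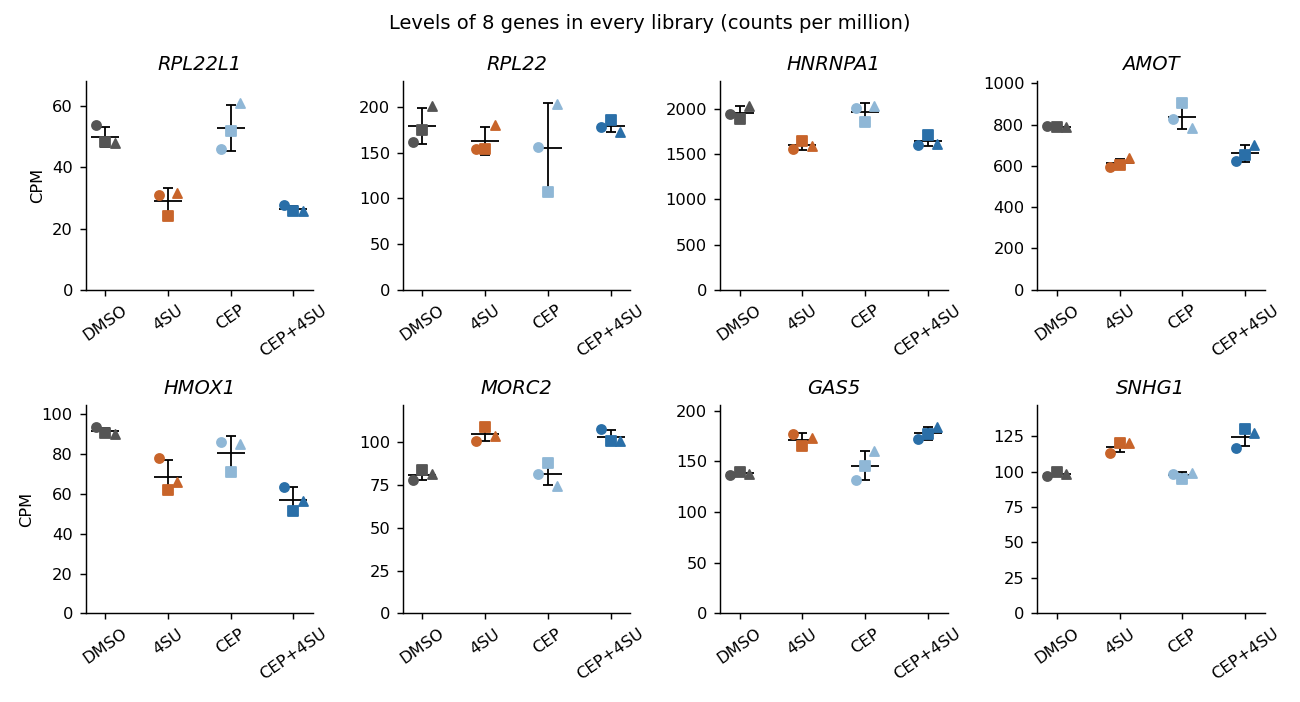
Levels of 8 genes in each of the 12 libraries, in CPM on linear axes that start at 0; circles, squares and triangles are replicates 1, 2 and 3, and black bars give the mean and SD of 3 libraries. RPL22L1 is lower in every 4SU library than in every DMSO library (31.8 CPM at most against 47.9 at least), while the RPL22 values of the groups overlap.

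Across all genes the response was small. Of 17729 genes, 16003 (90.3%) had an absolute log2 change under 0.5, and the median absolute change was 0.12. An unadjusted p under 0.05, which is used below only to count genes and not as a call, was reached by 492 genes with a higher level under 4SU (2.78%) and 660 with a lower one (3.72%), 6.50% together. The 3 libraries of each group did not overlap for 1344 genes with a higher level (7.58%) and 1822 with a lower one (10.3%). These 4 percentages are the backgrounds for the counts of each group of genes below. Values are relative to the library total, so that a shift shared by all genes would not show, and fewer cells of a kind cannot be told apart from less RNA per cell. When the spread between replicates was estimated from these 6 libraries alone, 94 genes passed (0.557% of 16864), 72 of them lower and 22 higher, and DESeq2 called 21 (0.425% of the 4939 genes it kept), 16 lower and 5 higher. RPL22L1 was not among the genes DESeq2 kept, so that it has no adjusted p there. The common fit of 12 libraries takes in the spread of the CEP groups, and is the main one used here.

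The coding genes with the strongest evidence after RPL22L1 had moderate, even differences. AMOT, which encodes the junction protein angiomotin, was at 794, 789 and 788 CPM in DMSO and 596, 602 and 638 CPM with 4SU, a log2 difference of -0.37 (SE 0.069, adjusted p 0.19). YBX3, a cold-shock-domain RNA-binding protein, was at 447, 421 and 408 CPM against 334, 316 and 322 CPM, a log2 difference of -0.39 (SE 0.074, adjusted p 0.19). The groups of neither gene overlapped, and neither passed in the common fit. With the spread taken from these 6 libraries alone both had an adjusted p of 0.00318, and with DESeq2 both had one of 0.0012. UCP2, a mitochondrial carrier, had a log2 difference of -0.44, UROS, an enzyme of haem synthesis, one of -0.40, TBCD, a tubulin cofactor, one of -0.40, and DBN1, the actin-binding drebrin, one of -0.34, with adjusted p of 0.204 to 0.368. Among genes with a higher level, MORC2, a chromatin-silencing ATPase, was at 77.9, 83.6 and 81.5 CPM in DMSO and 101, 109 and 104 CPM with 4SU, a log2 difference of 0.37 (SE 0.079, adjusted p 0.276). ATP6V0A1, a subunit of the vacuolar proton pump, had a log2 difference of 0.33, ZDHHC11, a palmitoyltransferase family member, one of 0.81 and ZNF266, a zinc finger protein, one of 0.43, each with an adjusted p of 0.537. FAXDC2, SULT4A1 and GDAP2 completed the 8 coding genes with a higher level, at log2 differences of 0.98, 0.45 and 0.36.

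EIF3CL showed the largest difference of the named genes. It was at 6.64, 6.40 and 7.01 CPM in the DMSO libraries and at 87.7, 36.0 and 8.71 CPM in the 4SU libraries, a log2 difference of 2.72 (SE 0.59, adjusted p 0.284). Replicate 3 with 4SU was barely above DMSO, so the size of the difference is set by the other libraries. EIF3CL is a near-identical copy of EIF3C, which encodes a subunit of the initiation factor eIF3, and counting can assign fragments to either, so its value is uncertain. EIF3C, named after its values were seen, was at 48.0, 33.7 and 34.3 CPM against 62.1, 26.2 and 56.0 CPM, with overlap. The sum of the pair was 54.6, 40.0 and 41.3 CPM in DMSO and 150.0, 62.1 and 64.6 CPM with 4SU.

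The messenger RNAs of the ribosome leaned to lower levels, each by little. Of the 79 genes for proteins of the cytosolic ribosome, 76 had a negative and 3 a positive log2 change. Of the 79, 0 passed the test, 9 (11.4%) had an unadjusted p under 0.05 with a lower level and 1 with a higher one, and 27 (34.2%) had 3 DMSO libraries all above the 3 with 4SU. Their median log2 change was -0.13, against -0.0073 over all genes. It was -0.056, -0.20 and -0.098 in 4SU replicates 1, 2 and 3 against the DMSO mean, and -0.055 for 4SU in CEP-treated cells. RPS20, a small-subunit protein, was at 401, 401 and 407 CPM in DMSO and 370, 327 and 349 CPM with 4SU, a log2 difference of -0.21 (adjusted p 0.671). RPL14 of the large subunit was at 759, 783 and 825 CPM against 626, 689 and 716 CPM, a log2 difference of -0.22 (adjusted p 0.688). The median stayed below 0 in 12 of 12 alternative fits, from -0.13 to -0.071, and was -0.073 without 4SU replicate 2. Of the 7 paralogs of ribosomal proteins that passed the filter, RPL22L1 was the only one called, and RPS27L, the next by p, had overlapping groups and a log2 difference of -0.20 (adjusted p 0.819).

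Genes that build the ribosome also leaned lower. Of 70 nucleolar and ribosome biogenesis genes, 55 had a negative log2 change, 6 (8.57%) had an unadjusted p under 0.05, all with a lower level, and 16 (22.9%) were lower without overlap. The median log2 change of this list was -0.070 (-0.092, -0.072 and -0.035 in the 3 replicates), and -0.024 in CEP-treated cells. NPM1, the abundant granular protein of the nucleolus, was at 2490, 2280 and 2390 CPM in DMSO and 2080, 2210 and 2120 CPM with 4SU, a log2 difference of -0.16 (SE 0.072, adjusted p 0.758). FBL, the methyltransferase fibrillarin, was at 380, 374 and 375 CPM against 346, 318 and 318 CPM, a log2 difference of -0.20 (adjusted p 0.748). Both gave groups without overlap and neither passed. PWP2 and MRTO4, assembly factors of the small and large subunit, had log2 differences of -0.41 and -0.21, and NCL, nucleolin, one of -0.11. Of 15 genes for RNA polymerase I and its factors, 0 had an unadjusted p under 0.05 and 10 had a negative log2 change, with a median of -0.0099. POLR1A, the largest subunit, was at 178, 177 and 182 CPM against 169, 169 and 183 CPM, and UBTF, which opens the ribosomal genes, at 194, 191 and 197 CPM against 200, 194 and 208 CPM.

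Splicing genes were read as a core list and a list of regulators. In the list of 74 core spliceosome genes, 44 log2 changes were negative and 30 positive. Of these genes, 2 (2.70%) had an unadjusted p under 0.05 with a lower level and 1 (1.35%) with a higher one, and 13 (17.6%) were lower without overlap and 2 (2.70%) higher. The median was -0.025 (-0.031, -0.031 and -0.0070 in the 3 replicates), and 0.042 in CEP-treated cells. With library sizes alone it was 0.031, where the median of all genes was 0.048. SF3B1 of the branch-site complex was at 548, 538 and 553 CPM in DMSO and 547, 573 and 571 CPM with 4SU, and the groups overlapped. SNRPA1, a protein of the U2 particle, had a log2 difference of 0.20 (adjusted p 0.725). U2AF1, which reads the 3' splice site, had one of -0.89 with overlapping groups, but the annotation holds a copy, U2AF1L5, that takes the same fragments, and the sum of the pair was 27.7, 52.7 and 24.6 CPM in DMSO and 55.9, 18.8 and 41.7 CPM with 4SU. That sum overlapped widely, so no direction can be read for it.

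Among the 63 regulators of splicing, 12 (19.0%) had an unadjusted p under 0.05 with a lower level and 1 (1.59%) with a higher one, and 18 (28.6%) were lower without overlap, although 0 passed. The list holds 20 hnRNP genes, whose proteins coat nascent RNA and which were counted apart after their values were seen. They made up 8 of those 12 genes and 12 of those 18, 17 of the 20 had a negative log2 change, and their median was -0.14 against 0.0047 for the 43 other regulators. HNRNPA1 was at 1950, 1890 and 2040 CPM in DMSO and 1560, 1650 and 1590 CPM with 4SU, a log2 difference of -0.29 (SE 0.062, adjusted p 0.248). HNRNPA2B1 was at 1610, 1700 and 1900 CPM against 1430, 1480 and 1500 CPM, a log2 difference of -0.24 (adjusted p 0.638). In both genes every 4SU value lay below every DMSO value. HNRNPF, HNRNPL, HNRNPH3, HNRNPA3, HNRNPC and HNRNPM were at log2 differences of -0.26 to -0.15, and SRSF3, a serine-arginine-rich factor, was at 650, 612 and 627 CPM against 591, 639 and 620 CPM. The median over the whole list was -0.031 (-0.092, 0.00016 and -0.0014 in 4SU replicates 1, 2 and 3), and 26 of its 63 genes had a positive log2 change. That median was 0.011 in CEP-treated cells. With library sizes alone it was 0.025, where the median of all genes was 0.048. Of 37 genes of RNA surveillance and decay, 1 had an unadjusted p under 0.05 in each direction. These were EXOSC6, an exosome subunit, at a log2 difference of -0.26, and SMG1, the kinase of nonsense-mediated decay, at 0.22.

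**Figure D2:**
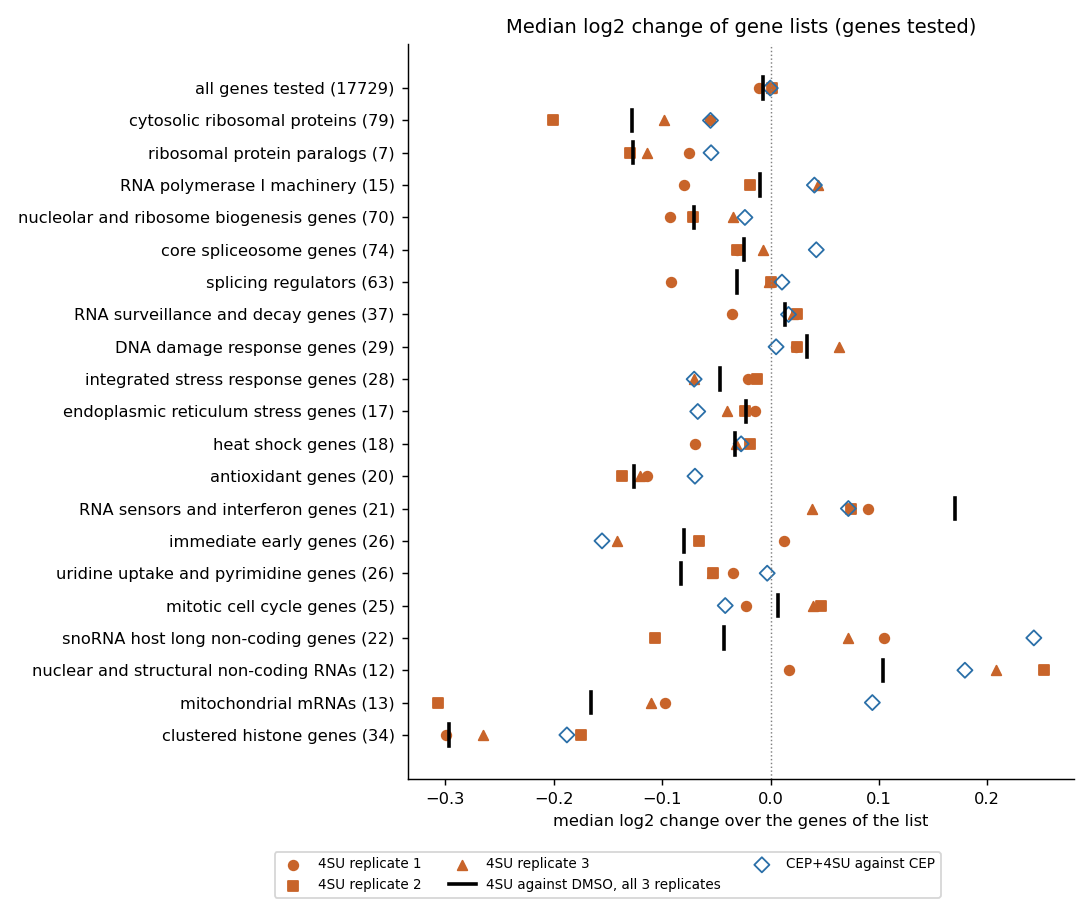
Median log2 change of each gene list, with the number of genes tested in brackets. Circles, squares and triangles are the 4SU replicates 1, 2 and 3, each as log2 CPM (prior count 2) minus the mean of the 3 DMSO libraries. Black bars are the medians of the fitted change of 4SU against DMSO (prior count 0.125), and open diamonds those of CEP+4SU against CEP. Some bars lie outside the points, and the reason was not tested. All 5 symbols lie left of 0 for ribosomal proteins, their paralogs and the nucleolar, integrated stress, endoplasmic reticulum stress, heat shock, antioxidant, uridine and histone lists, and right of 0 for the DNA damage, RNA sensor and nuclear RNA lists, while the diamond of the mitochondrial mRNAs lies right of 0 (0.094) and their other symbols left of it.

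Of the stress genes, 0 passed the test for 4SU against DMSO. The list of DNA damage response genes, whose proteins arrest the cell cycle, repair DNA or start cell death, had 29 genes tested, 19 of them with a positive log2 change, a median of 0.033 and 1 gene with an unadjusted p under 0.05, SESN2, at a lower level (109 CPM in DMSO and 95.7 with 4SU). CDKN1A, the cyclin kinase inhibitor p21, was at 53.1, 57.0 and 52.1 CPM in DMSO and 58.3, 50.3 and 47.6 CPM with 4SU. MDM2, a ubiquitin ligase, was at 151, 153 and 146 CPM against 148, 178 and 162 CPM. The groups overlapped for both genes, at log2 differences of -0.053 (SE 0.11) and 0.12 (SE 0.097).

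Of 28 genes of the integrated stress response, by which cells answer blocked translation or lack of amino acids, 3 (10.7%) had an unadjusted p under 0.05, all at a lower level. Without overlap, 8 (28.6%) were lower and 2 (7.14%) higher. In this list 17 log2 changes were negative and 11 positive, from -0.33 to 0.80, with a median of -0.046. ATF4, the central factor of this response, was at 755, 717 and 725 CPM in DMSO and 705, 674 and 669 CPM with 4SU, a log2 difference of -0.10 (SE 0.076). DDIT3, the factor CHOP, was at 5.24, 5.27 and 5.68 CPM against 4.98, 6.66 and 5.27 CPM. The ATF4 groups did not overlap and those of DDIT3 did, and neither difference passed. STC2, a secreted stanniocalcin, was at 79.8, 84.0 and 72.0 CPM against 64.4, 61.2 and 61.8 CPM, a log2 difference of -0.33 (SE 0.082, adjusted p 0.521), and SLC7A5, an amino acid transporter, had one of -0.29. Of 17 genes of endoplasmic reticulum stress, 1 had an unadjusted p under 0.05, CRELD2, at a log2 difference of -0.29, and the list median was -0.023. Of 18 heat shock genes, 1 did so, HSP90AB1, at -0.15, and HSPA1A, the inducible chaperone HSP70, was at 26.6, 22.5 and 26.0 CPM in DMSO and 23.9, 25.8 and 24.4 CPM with 4SU. HSPA1A has a near-identical copy, HSPA1B, with which it can share fragments.

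The antioxidant genes, most of them targets of the factor NRF2, leaned lower in all 3 replicates. Of 24 genes 20 passed the filter, 17 of them had a negative log2 change, 6 (30.0%) had an unadjusted p under 0.05 at a lower level and 9 (45.0%) were lower without overlap, while 0 passed the test. The median log2 change was -0.13, and -0.11, -0.14 and -0.12 in the 3 replicates. HMOX1, the haem-degrading enzyme, was at 93.6, 90.8 and 90.2 CPM in DMSO and 78.0, 62.0 and 65.9 CPM with 4SU, a log2 difference of -0.42 (SE 0.10, adjusted p 0.521). Among the other genes with an unadjusted p under 0.05 were TALDO1 (191 against 157 CPM), TKT (424 against 367) and PGD (189 against 170), enzymes of the pentose phosphate route, and SQSTM1, the autophagy receptor p62 (120 against 101). The median in CEP-treated cells was -0.070.

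Genes that detect foreign RNA and respond to interferon were measured low. Of 33 genes 21 passed the filter, and 12, among them OAS1, OAS2 and MX1, did not. Of those tested, 14 had a positive and 7 a negative log2 change, and 2 (9.52%) were higher and 2 (9.52%) lower without overlap. An unadjusted p under 0.05 was reached by 2 (9.52%), both at a higher level, and 0 passed. STAT2, a signal transducer of interferon receptors, was at 25.1, 28.4 and 28.9 CPM in DMSO and 37.7, 37.0 and 29.7 CPM with 4SU, a log2 difference of 0.34 (SE 0.11, adjusted p 0.645). EIF2AK2, the kinase PKR, was at 95.2, 108 and 102 CPM against 114, 127 and 128 CPM, a log2 difference of 0.27 (SE 0.10, adjusted p 0.721). DDX58, the sensor RIG-I, was at 5.72, 6.75 and 5.85 CPM against 4.02, 5.72 and 6.26 CPM, and IFIT1, an interferon-induced gene, at 9.33, 10.4 and 10.5 CPM against 10.7, 10.2 and 8.55 CPM. The groups of both overlapped. The median of the list was 0.17 in the fit and 0.039 to 0.090 in the single replicates, whose log values are damped for low genes. It was 0.059 without DMSO replicate 3, 0.085 with limma on log2(FPKM + 1) and 0.072 in CEP-treated cells.

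The genes that take up and use uridine showed no called change after 16 h with its analog. Of 26 tested genes, 21 had a negative log2 change, with a median of -0.083, which was -0.025 with the G+C trend removed, -0.018 without DMSO replicate 1 and -0.0031 in CEP-treated cells. Of the 26, 1 had an unadjusted p under 0.05, RRM2, a ribonucleotide reductase subunit, at 201, 192 and 190 CPM in DMSO and 161, 181 and 168 CPM with 4SU. SLC29A1, the nucleoside transporter ENT1, was at 115, 107 and 108 CPM against 121, 107 and 117 CPM, and UCK2, a uridine-cytidine kinase, at 167, 161 and 171 CPM against 162, 172 and 165 CPM. Both overlapped, at log2 differences of 0.064 (SE 0.093) and -0.0014 (SE 0.072). Of 25 mitotic genes, 0 had an unadjusted p under 0.05, and CCNB1, cyclin B1, was at 260, 247 and 264 CPM against 227, 252 and 226 CPM. Of 26 immediate early genes, 0 did so, and EGR1 was at 5.37, 6.21 and 6.55 CPM against 3.23, 5.48 and 4.85 CPM.

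Mitochondrial and histone mRNAs also leaned lower. The 13 mRNAs encoded in the mitochondrion all had a negative log2 change, with a median of -0.17, and 1 had an unadjusted p under 0.05. That was MT-CO2, a subunit of cytochrome oxidase, at 1780, 2010 and 2120 CPM in DMSO and 1720, 1460 and 1700 CPM with 4SU (log2 difference -0.28, adjusted p 0.744). These 13 come from shared precursor RNAs, their median was -0.052 without DMSO replicate 3, and in CEP-treated cells it was 0.094. Of 90 clustered histone genes, whose mRNAs normally carry no poly(A) tail, 34 passed the filter, 26 of those had a negative log2 change and 7 (20.6%) an unadjusted p under 0.05, all at a lower level. HIST1H2BK was at 67.5, 60.7 and 72.1 CPM in DMSO and 54.3, 53.4 and 52.5 CPM with 4SU, a log2 difference of -0.32 (SE 0.086, adjusted p 0.537). The median was -0.30 (-0.30, -0.18 and -0.27 in the replicates), and -0.19 without DMSO replicate 2. The mitochondrial rRNAs MT-RNR1 and MT-RNR2 were named after their values were seen. MT-RNR1 was at 356, 1140 and 1140 CPM in DMSO and 350, 912 and 1030 CPM with 4SU, low in replicate 1 of both groups, and MT-RNR2 at 1310, 1580 and 1520 CPM against 1340, 1360 and 1450 CPM. MALAT1, an abundant nuclear RNA, was at 41.4, 168 and 132 CPM against 64.8, 157 and 131 CPM.

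Non-coding RNA leaned the other way. Of the 2374 genes of all long non-coding classes that passed the filter, 1461 had a positive and 913 a negative log2 change. Of them, 97 (4.09%) had an unadjusted p under 0.05 at a higher level against 22 (0.927%) at a lower one. Without overlap, 231 (9.73%) were higher and 87 (3.66%) lower, against 7.58% and 10.3% over all genes. The share of higher genes was thus near that of all genes, and the share of lower ones was below it. Among the 13975 protein-coding genes, those with an unadjusted p under 0.05 were more often lower, with 343 (2.45%) at a higher and 620 (4.44%) at a lower level. The median log2 change was 0.10 for the long non-coding genes (0.096, 0.12 and 0.15 in the replicates) and -0.018 for the coding genes. In CEP-treated cells the medians for 4SU were 0.15 and -0.012. Of the 2374, 0 passed the test for 4SU against DMSO. Without DMSO replicate 2 their median was 0.16.

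By class, median log2 changes were 0.079 over 1094 antisense genes, 0.099 over 850 lincRNA genes, 0.14 over 152 sense-intronic genes and 0.11 over 262 transcribed unprocessed pseudogenes. Without DMSO replicate 2 those of the antisense, lincRNA and sense-intronic genes were 0.15, 0.16 and 0.25. Sense-intronic genes lie inside introns of coding genes, so that their fragments cannot be told apart from unspliced RNA of the host, and without a stated strand setting fragments of an antisense gene cannot be told apart from those of its partner. As a share of a library's counts, all long non-coding classes took 1.03%, 1.17% and 1.09% in DMSO and 1.19%, 1.23% and 1.23% with 4SU. The antisense class took 0.309%, 0.336% and 0.321% against 0.348%, 0.356% and 0.359%, and the lincRNA class 0.420%, 0.510% and 0.460% against 0.502%, 0.526% and 0.523%. The groups did not overlap for the long non-coding classes together or for antisense, and did for lincRNA. In CEP-treated cells the share of all long non-coding classes was 1.01%, 1.15% and 1.08% without 4SU and 1.16%, 1.24% and 1.13% with it, with overlap, and that of antisense 0.298%, 0.301% and 0.306% against 0.337%, 0.342% and 0.327%, without overlap. Of 21 classes, 10 had a higher share in every 4SU library, 1 a lower one and 10 overlapped. Of the 10 with a higher share, the classes named TEC, sense-intronic, snRNA and macro lncRNA overlapped in CEP-treated cells, and macro lncRNA holds only 1 gene. The class with a lower share was rRNA, at 0.000682%, 0.000964% and 0.000970% in DMSO and 0.000493%, 0.000465% and 0.000324% with 4SU. It rests on 2 tested genes in libraries selected for poly(A), and its share overlapped in CEP-treated cells.

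**Figure D3:**
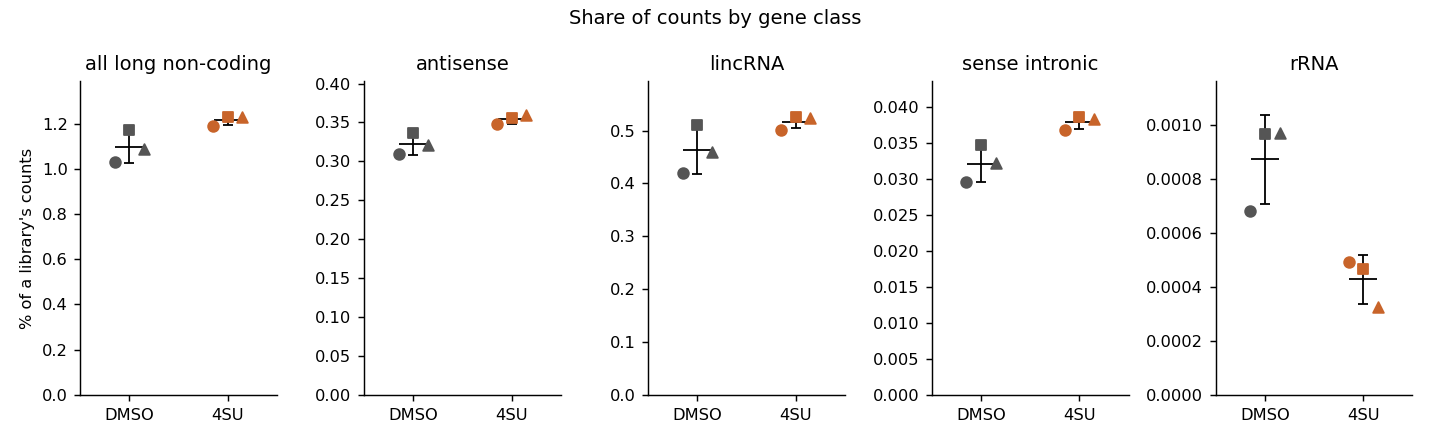
Share of each library's counts, in percent on linear axes from 0, taken by the long non-coding classes together and by 4 single classes; circles, squares and triangles are replicates 1, 2 and 3, and black bars the mean and SD of 3 libraries. The 4SU libraries lie above DMSO for all long non-coding classes (1.19% at least against 1.17% at most), with overlap for lincRNA and lower values for rRNA.

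Named non-coding genes gave differences of moderate size. GAS5 (minus strand, chr1:173863900-173868882), which carries snoRNAs in its introns and whose spliced RNA is decayed when translated, was at 137, 140 and 138 CPM in DMSO and 177, 165 and 173 CPM with 4SU, a log2 difference of 0.32 (SE 0.076, adjusted p 0.502). SNHG1, a host of the same kind, was at 97.2, 99.6 and 98.7 CPM against 113, 120 and 120 CPM, a log2 difference of 0.26 (SE 0.073, adjusted p 0.557). Both were higher in every 4SU library. Together with SNHG12 at 0.26 they were the 3 (13.6%) of 22 snoRNA host genes with an unadjusted p under 0.05, all at a higher level. The list as a whole had 13 negative and 9 positive log2 changes and a median of -0.043, with medians of 0.10, -0.11 and 0.072 in the replicates. Its median was 0.12 without 4SU replicate 2 and 0.24 for 4SU in CEP-treated cells, so that no single direction holds for it.

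Outside that list, MCM3AP-AS1, antisense to MCM3AP, was at 12.8, 14.7 and 14.0 CPM in DMSO and 22.1, 21.7 and 20.1 CPM with 4SU, a log2 difference of 0.62 (SE 0.12, adjusted p 0.199). AC006538.1, a sense-intronic gene, was at 2.20, 1.77 and 1.53 CPM against 4.02, 4.95 and 4.90 CPM, a log2 difference of 1.33 (SE 0.25, adjusted p 0.19). HELLPAR, a very long RNA, had a log2 difference of 0.74 and ZNF37BP, a pseudogene, one of 0.38. None of these groups overlapped and none passed. Of 12 tested nuclear and structural non-coding RNAs, 2 (16.7%) had an unadjusted p under 0.05 at a higher level. They were TUG1, at 153, 161 and 162 CPM against 169, 193 and 197 CPM, and NEAT1, the scaffold of paraspeckles, at 86.6, 133 and 119 CPM against 128, 150 and 139 CPM. RN7SK, which holds the elongation factor P-TEFb inactive, was listed at 0 FPKM and did not pass the filter.

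Lower non-coding levels were fewer. VPS9D1-AS1 was at 59.4, 57.3 and 55.3 CPM in DMSO and 44.4, 39.4 and 41.3 CPM with 4SU (log2 difference -0.46, adjusted p 0.537), and GATA2-AS1 had a log2 difference of -0.35. RNA5-8SN2, an annotated copy of the 5.8S ribosomal RNA, was at 6.25, 8.92 and 7.71 CPM against 4.39, 4.07 and 2.40 CPM, a log2 difference of -1.07 (SE 0.28, adjusted p 0.537). In CEP-treated cells it was at 4.74, 2.30 and 3.46 CPM without 4SU and 4.14, 2.83 and 2.16 CPM with it, with overlap. Its copies are near-identical, and this RNA has no poly(A) tail, so the value is uncertain. RPS2P7 and AP000692.2 were below 5 CPM in all 6 libraries.

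The change varied with the base composition of the transcript, and not alike in the replicates. Over 5 bins of equal size, with the genes ordered by the G+C content of their longest transcript, the median log2 change was 0.059, 0.025, -0.0053, -0.046 and -0.096 from the lowest to the highest bin. In 4SU replicate 2 it went from 0.13 to -0.17 and in replicate 3 from 0.077 to -0.12, while in replicate 1 it went from -0.023 to 0.015. By uridine content it went from -0.085 in the bin with the least uridine to 0.047 in that with the most, and again not in replicate 1 (0.020 to -0.028). In CEP-treated cells the medians for 4SU ran from -0.0048 to 0.0079 over the G+C bins. Across 17718 genes with both values, the log2 change had a correlation of -0.16 with G+C content and 0.12 with uridine content, which are themselves linked in every transcript. When each library's trend on G+C content was removed, 12 genes passed (0.0677%), 8 lower and 4 higher, RPL22L1 among them with an adjusted p of 0.00335. The median log2 change was then -0.11 for ribosomal protein genes, -0.060 for nucleolar genes, -0.12 for antioxidant genes and 0.11 for the long non-coding classes.

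**Figure D4:**
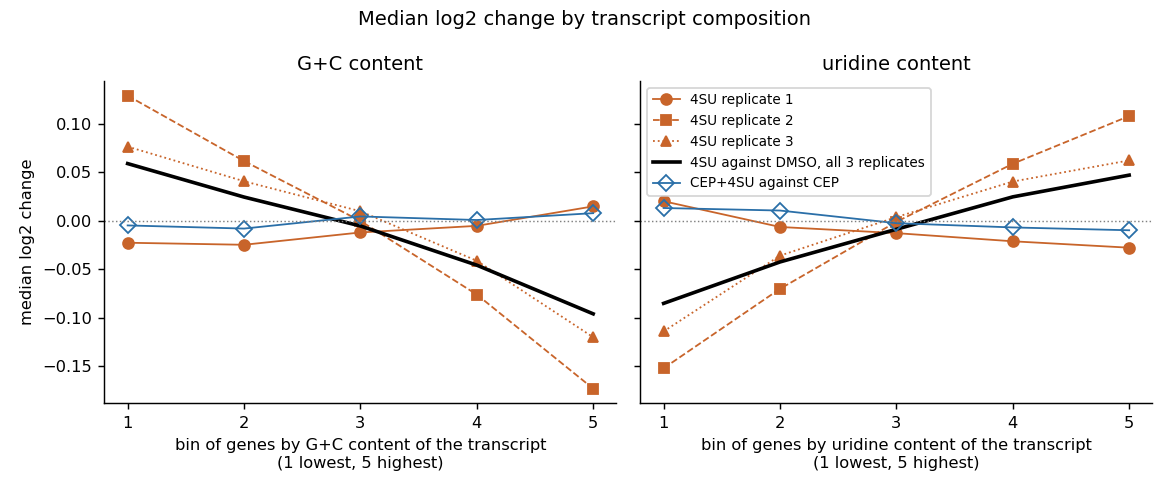
Median log2 change over 5 equal bins of the tested genes ordered by G+C content (left) and uridine content (right) of the longest transcript; orange lines are the single 4SU replicates against the DMSO mean, the black line the fitted change of 4SU against DMSO, and blue diamonds CEP+4SU against CEP. The slope is carried by 4SU replicates 2 and 3 and is near 0 in replicate 1 and in CEP-treated cells.

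The differences were compared with those of 4SU in CEP-treated cells, which come from 6 other libraries. Of all 17729 genes, 61.0% had the same sign in both backgrounds, with a correlation of the log2 changes of 0.15 across genes. Of the 660 genes with a lower level and an unadjusted p under 0.05 without CEP, 86.8% had a lower level there too, and of the 492 with a higher level, 80.9% had a higher one. The test of the difference between the backgrounds called 0 genes with edgeR (0% of 17729, with 467 at an unadjusted p under 0.05, 2.63%) and 0 with DESeq2.

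With the 4SU effect averaged over both backgrounds, 99 genes passed (0.558%), 68 lower (0.384%) and 31 higher (0.175%). Of the 84 coding genes, 67 fell and 17 rose, and of the 15 non-coding genes and pseudogenes, 14 rose and 1 fell. All 99 had the same sign in both backgrounds, but they were selected on the mean of both, which favours such agreement. RPL22L1 was first by adjusted p, with a log2 change of -0.90 (SE 0.083, adjusted p 2.37e-05). UCP2 fell by 0.47, LRBA, a vesicle trafficking protein, by 0.44, YBX3 by 0.37 and AMOT by 0.36, while ZDHHC11 rose by 0.97 and MORC2 by 0.36. From the lists, HMOX1 fell by 0.46 (adjusted p 0.0089), HNRNPA1 by 0.28 (0.0089), RPL4, the only ribosomal protein gene called, by 0.23 (0.0342), and HIST1H2BK by 0.28 (0.0381). SNHG1 rose by 0.31 (0.0125), GAS5 by 0.30 (0.0161) and TUG1 by 0.26 (0.0365). The other clustered histone gene called, HIST1H1D, went the opposite way to HIST1H2BK and rose by 3.96 (0.0407), the largest change of the 99. Its log2 change was 1.29 without CEP and 6.64 with it, and it had 0 counts in 3 of the 12 libraries. With any 1 of the 12 libraries left out, between 6 and 125 genes passed, and RPL22L1, AMOT and HNRNPA1 passed in 12 of 12 such fits, SNHG1 in 10, HMOX1 in 9, GAS5 in 8, RPL4 in 5, TUG1 in 4 and HIST1H2BK in 1. The count was 6 without DMSO replicate 1, 26 without DMSO replicate 2, 17 without DMSO replicate 3, 62 without 4SU replicate 1, 13 without 4SU replicate 2, 14 without 4SU replicate 3, 51 without CEP+4SU replicate 1 and 44 without CEP+4SU replicate 3.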

How the data were processed

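Messenger RNA was selected with poly-T beads and sequenced as read pairs. Per their methods, the authors dropped low-quality reads and those holding adapter or poly-N, mapped what remained with HISAT2 2.0.5 to GRCh38 (GENCODE 29) and counted it on genes with featureCounts 1.5.0-p3. The deposited counts are whole numbers without normalization. The deposited FPKM are those counts divided by gene length and library size, on a linear scale. The strand setting of the counting was not given in the sources used here.

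All 12 libraries (4 groups of 3, 16569114 to 24644734 counts each) were fitted together with edgeR 4.0.16 in R 4.3.3 (quasi-likelihood test, TMM, filterByExpr with a minimum count of 10 and a minimum total of 15, Benjamini-Hochberg adjustment at 0.05), leaving 17729 of 58735 genes. Intervals and SE cover the spread between these libraries only. Alternatives were DESeq2 1.42.0, limma 3.58.1 on log2(FPKM + 1) and log2(FPKM + 0.1), other scalings and filters, robust dispersion, a replicate block, G+C and length corrections, the 6 libraries alone and each library left out. The scripts were tested on simulated data. Transcript composition came from the GENCODE 29 transcripts.

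The groups to compare, the members and the gene lists were chosen with earlier results of these data known, so the lists support nothing beyond their description. Named genes were the gene passing for 4SU against DMSO, the 8 coding genes in each direction and the 5 others in each direction with the smallest p among those with at least 1 CPM and no overlap, the 2 with the smallest p in each of 23 lists, the 8 with the smallest adjusted p averaged over CEP, and 24 chosen by function, in all with 4 named after their values were seen 94, of which 93 were tested. Some of the further list members were named after their values were seen. Some items withheld from this text are not reported here. The table of group means and the authors' own comparisons were not used. The labels give the CEP dose as 25 in mM and the design text as 25 in µM, and the latter was used.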

Additional observations from a re-analysis of the deposited data

How the results depend on the processing

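The number of genes called for 4SU against DMSO was 1 and changed to 21 with DESeq2, 0 with limma on log2(FPKM + 1) or log2(FPKM + 0.1), 0 with upper-quartile normalization, 0 with library sizes alone, 41 with no low-count filter, 12 with the G+C trend removed, 94 with the 6 libraries alone and 0 in each of the 6 fits without 1 library; the cause was not tested. For CEP+4SU against CEP, 1 became 75 with DESeq2, 102 with no filter, 179 with the G+C trend removed, 4 with the length trend removed and 1 to 6 without 1 library. For 4SU averaged over CEP, 99 became 336 with DESeq2, 39 and 36 with limma at the 2 pseudocounts, 311 with no filter, 610 with the G+C trend removed, 258 at an adjusted p of 0.1 and 6 to 125 without 1 library. The interaction had 0, and 15 with no filter and 0 to 1 without 1 library.

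Across genes, deviations of the same-numbered DMSO and 4SU libraries from their group means had correlations of -0.0027, -0.013 and 0.016. Those of the same-numbered CEP and CEP+4SU libraries had 0.14, 0.086 and -0.047, against -0.158 to 0.0555 for differently numbered ones. Correlations over all genes do not settle whether replicate numbers pair the libraries, and MT-RNR1 was low in replicate 1 of both DMSO and 4SU. A replicate block gave 8 calls for 4SU against DMSO, among them AMOT, YBX3, UROS, EIF3CL and MCM3AP-AS1 (adjusted p 0.0464 each) beside RPL22L1 (0.00664), 5 for CEP+4SU against CEP and 336 averaged.

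The median log2 change of ribosomal protein genes was -0.15 to -0.073 without 1 library. That of nucleolar genes moved to -0.015 with library sizes alone, and was -0.086 to -0.042 without 1 library. The core spliceosome median was 0.0022 with upper-quartile normalization, 0.031 with library sizes alone, and -0.030 to -0.0074 without 1 library. The median of splicing regulators was 0.025 with library sizes alone and -0.033 to 0.0065 without 1 library. That of the long non-coding classes was 0.059 with limma on log2(FPKM + 1), 0.13 with upper-quartile normalization, 0.16 with library sizes alone, 0.039 with no filter, and 0.087 to 0.16 without 1 library. Library sizes alone moved the median of all genes from -0.0073 to 0.048. Of 93 tested named genes, the fits called between 0 and 27.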

Other observations

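Some of the 99 genes called for 4SU averaged over both backgrounds are in none of the lists above. Those given here were chosen after their values were seen, and whether genes of their kinds are more frequent among the 99 than among all genes was not tested. TNC, the matrix glycoprotein tenascin, fell by 0.71 (SE 0.13, adjusted p 0.0161), COL14A1, a collagen, by 0.47 (0.0235), LTBP1, which holds latent TGF-beta, by 0.35 (0.0381), TIMP2, an inhibitor of metalloproteinases, by 0.33 (0.0151), FBLN1, fibulin, by 0.31 (0.0429), NID1, nidogen, by 0.27 (0.0151) and LAMB1, a laminin chain, by 0.25 (0.0485). In the comparison without CEP their log2 differences were -0.56, -0.44, -0.41, -0.24, -0.22, -0.20 and -0.24. ACTG1, a cytoplasmic actin, fell by 0.36 (0.0151), PLS3, a bundling protein, by 0.32 (0.0089) and CAPZB, a capping subunit, by 0.29 (0.0342). Other genes of the cell surface went both ways. GPRC5A, a membrane receptor, rose by 0.52 (0.0483), KCNC1, a potassium channel, by 0.51 (0.0365) and PMP22, a myelin membrane protein, by 0.32 (0.0496). TENM1, a teneurin, fell by 0.45 (0.0344), FLT1, a receptor, by 0.43 (0.0344) and GJA1, a connexin, by 0.29 (0.0235).

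The lipid synthesis genes ACLY, FDFT1 and SCD fell by 0.27, 0.27 and 0.21, and ENO1, a glycolytic enzyme, by 0.24. ADK, the kinase that salvages adenosine, fell by 0.29 (adjusted p 0.0345). CCND1, cyclin D1, fell by 0.31 (adjusted p 0.0151). Among the 17 coding genes that rose were BCLAF1 by 0.30 and THRAP3 by 0.25, which encode related proteins of RNA processing, and CHD2, a chromatin remodeller, by 0.27.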
